A study of Homo sapiens with 6 samples.

Results

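The AP-1 transcription factor subunits followed here are the mRNAs of 10 genes: the JUN family (JUN, JUNB and JUND), the FOS family (FOS, FOSB, FOSL1 and FOSL2), BATF3, and the small MAF factors MAFF and MAFK. They were found by Ensembl identifier, matched to the gene symbol, among the 62703 genes counted, and all 10 were among the 15797 genes that passed the filter on low counts. RNA was sequenced in bulk from MDA-MB-231, a human breast cancer line that lacks the oestrogen and progesterone receptors. Cells carried either hairpin RNA against RNF20 (shRNF20, 3 libraries) or a control hairpin (shControl, 3 libraries). RNF20 is the ubiquitin ligase that, with RNF40, marks histone H2B in transcribed genes. How many hairpins were used, and whether the cells were pools or clones, is not given in the sources used here.

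AP-1 is not a single protein but a set of dimers built from basic leucine zipper (bZIP) factors. JUN proteins pair with each other or with a FOS protein, FOS proteins need a JUN partner, and the dimers bind the TPA response element (TGACTCA) or the cAMP response element (TGACGTCA). FOS, FOSB, JUN and JUNB are immediate early genes, switched on within minutes by MAP kinase signalling, whereas JUND is known to be expressed more steadily. FOSL1 (the protein FRA-1) and FOSL2 (FRA-2) lack the strong activation domain of FOS and FOSB, and FOSL1 is known to be abundant in invasive breast cancer lines of this kind. BATF3 and the small MAFs have no activation domain of their own. BATF3 pairs with JUN proteins, and the small MAFs are best known as partners of NRF2 and its relatives at antioxidant response elements.

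Several of these genes are known to be controlled by AP-1 or CREB factors at their own promoters, so the 250 bases before each RefSeq start (GRCh38.p14) were searched for 4 motifs on both strands. A RefSeq promoter was matched for 7 of the 10 genes, 8 promoters in all since MAFF has 2 starts. FOSL1, BATF3 and MAFK had no entry and were not searched. RefSeq starts differ from the GENCODE 29 gene starts printed with each gene: the windows of JUN and FOSL2 and both of MAFF lie wholly inside the GENCODE gene, and 54 bases of that of FOS do. The cAMP response element TGACGTCA was found in the JUND promoter and at 1 of the 2 MAFF starts, that is in 2 of the 8 promoters, against 1.65% of all 35116 promoters of the same length. With any base allowed in the middle (TGACNTCA, which contains the motif before it), a match was also found in the JUN promoter, so 3 of 8 promoters held it, against 6.87% of all. The TPA response element TGACTCA (4.2% of all promoters) and the serum response element (CC, 6 of A or T, then GG, 1.16% of all) were found in none of the 8. Bases further upstream and other variants of these motifs were not searched. A motif missing from a window may therefore still be present at that gene, FOS included. The 3 promoters with a match are shown 5′ to 3′ along the gene's strand, with the match in capitals. JUND and MAFF were lower in the shRNF20 libraries and JUN did not pass the test. Whether the motifs have a part in those levels was not tested. The match lies 200 to 193 bases before the start in JUND (chr19:18281623-18281872, minus strand), 54 to 47 bases before it in MAFF (chr22:38201744-38201993, plus strand) and 67 to 60 bases before it in JUN (chr1:58784048-58784297, minus strand).
JUND: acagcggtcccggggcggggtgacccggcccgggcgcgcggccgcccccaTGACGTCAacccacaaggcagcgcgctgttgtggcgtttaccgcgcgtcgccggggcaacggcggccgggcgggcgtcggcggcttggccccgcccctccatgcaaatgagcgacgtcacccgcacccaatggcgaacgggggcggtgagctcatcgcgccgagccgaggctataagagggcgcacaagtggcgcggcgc
MAFF: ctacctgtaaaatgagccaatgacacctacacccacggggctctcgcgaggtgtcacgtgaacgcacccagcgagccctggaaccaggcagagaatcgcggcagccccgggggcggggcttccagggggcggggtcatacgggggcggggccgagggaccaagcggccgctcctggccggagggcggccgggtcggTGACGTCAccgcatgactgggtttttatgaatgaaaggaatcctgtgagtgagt
JUN: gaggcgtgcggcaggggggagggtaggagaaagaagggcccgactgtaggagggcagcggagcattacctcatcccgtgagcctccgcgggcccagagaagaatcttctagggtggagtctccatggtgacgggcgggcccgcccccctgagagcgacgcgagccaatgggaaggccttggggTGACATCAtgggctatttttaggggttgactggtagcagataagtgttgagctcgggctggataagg
These are matches of letters and were not tested for binding, and FOSB, which was also lower, had none of the 4 motifs in its window.

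Of the 10 subunits, 6 were lower in shRNF20 cells (JUND, FOSL1, FOSB, BATF3, MAFF and MAFK) and the other 4 (JUN, JUNB, FOS and FOSL2) did not pass the test. None was higher by edgeR's quasi-likelihood test with Benjamini-Hochberg adjustment over all genes at 0.05; 0 were higher at an unadjusted p under 0.05, and 0 by DESeq2 or limma-voom, which called 28.4% and 29.1% of all genes higher. Change was common in these libraries: 29.8% of all genes tested were lower, 28.7% were higher, and 58.4% were called in either direction, so the total of 6 called out of 10 is close to the background. The median log2 fold change was -0.41 over the 10 subunits and -0.01 over all genes tested. In 7 of the 10 the libraries of the groups did not overlap in level, against 66.3% of all genes tested, and 6 of the 10 did so with shRNF20 lower, against 32.8% of all genes. JUND was the single member past the threshold with a change of 2-fold or more. In bulk RNA, fewer cells expressing a gene and less of its RNA per cell cannot be told apart. With the 3 shRNF20 libraries summed to 1 sample, JUND and FOSL1 were the 2 members that still passed, when 9.28% of all genes were called lower and 10.1% higher. That fit has a single shRNF20 sample, so its spread comes from the 3 shControl libraries alone and the shRNF20 sample is assumed to vary like them.

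**Figure D1:**
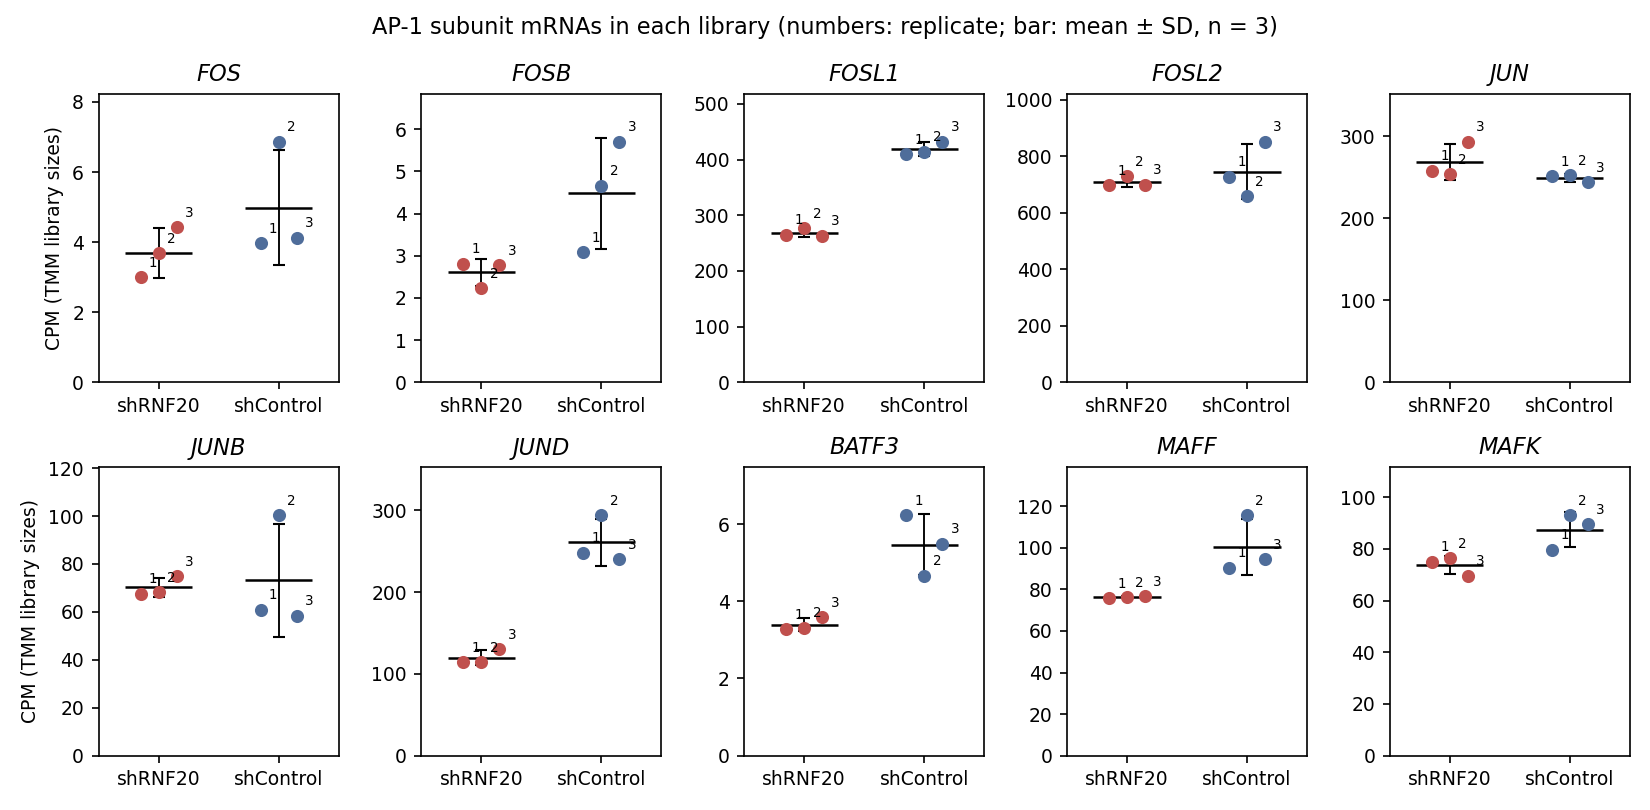
Level of each of the 10 AP-1 subunit mRNAs in each library, in counts per 1000000 gene counts (CPM, TMM library sizes; linear axes from 0, with a scale of its own for each gene), with shRNF20 left of shControl; points are libraries with their replicate number, and bars give the mean and SD of 3 libraries. JUND, FOSL1, FOSB, BATF3, MAFF and MAFK are lower in every shRNF20 library than in any shControl library, and JUNB, FOS and FOSL2 overlap.

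The libraries differed in more than their AP-1 genes. Counts assigned to genes totalled 21988826 to 28265573 in the shRNF20 libraries and 23786533 to 29685306 in the shControl libraries. RNF20 itself stood at 14.1, 12.2 and 11.1 CPM in the shRNF20 libraries, against 57.8, 58.5 and 58.0 CPM in the shControl libraries (edgeR log2 fold change -2.22, adjusted p = 5.23e-06). Mitochondrial transcripts took 5.74 ± 0.72% of gene counts in shRNF20 and 1.09 ± 0.25% in shControl libraries (SD, n = 3 each). The shRNF20 libraries were much closer to each other than the shControl libraries were: counts of replicate pairs gave a chi-square per degree of freedom of 2.06 to 6.797 within shRNF20 and 31.9 to 51.5 within shControl, where sampling noise alone gives 1. Accordingly the SD of CPM was smaller in shRNF20 for 9 of the 10 subunits and for 76.7% of all genes tested. Of the line's markers, VIM, CD44, AXL, CAV1 and EGFR summed to 2777 to 2786 CPM in shRNF20 and 3306 to 3847 CPM in shControl. Mean CPM in shRNF20 and shControl was 351 and 822 for CD44, and 475 and 637 for VIM. It was 1304 and 1358 for AXL, 272 and 284 for CAV1, and 381 and 432 for EGFR. ESR1 was low, but higher in every shRNF20 library (1.27, 1.68 and 1.37 CPM) than in any control (0.10, 0.20 and 0 CPM). PGR stayed at or below 0.21 CPM in all 6. With 4 other genes expected to be low or absent, ESR1 and PGR summed to 177 to 182 CPM in shRNF20. In shControl that sum was 137 to 153 CPM, and most of it was ERBB2 in both groups. Markers of other cell types were low: 6 leukocyte genes summed to 4.50 to 6.58 CPM in shRNF20 and 4.09 to 6.16 CPM in shControl, and the T cell gene CD3E was at 0 in all 3 shRNF20 libraries and in 2 of the 3 shControl libraries. The 4 endothelial genes summed to 7.96 to 8.89 CPM in shRNF20 and 12.2 to 18.0 CPM in shControl, with CDH5 at 0 in 1 shRNF20 library. The 5 fibroblast genes summed to 27.1 to 30.05 CPM in shRNF20 and 3.45 to 9.79 CPM in shControl, most of it PDGFRB, with COL3A1 at 0 in 1 shControl library. Their part in the results was not tested.

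Among the JUN proteins' genes, only JUND passed the test. JUND (ENSG00000130522.6, chromosome 19, 18279760 to 18281622, minus strand), a gene of 1 exon, had 114, 114 and 130.2 CPM in the shRNF20 libraries, against 248, 294 and 240.1 CPM in the shControl libraries. The highest shRNF20 library was far below the lowest control. On average JUND was 2.18-fold lower, at 119.6 ± 9.17 CPM in shRNF20 and 261 ± 29.2 CPM in shControl cells (SD, n = 3 each; edgeR log2 fold change -1.12, SE 0.10, adjusted p = 4.29e-05). This difference passed in all 16 alternative settings, where its log2 fold change lay between -1.20 and -1.05.

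JUN (ENSG00000177606.8, chromosome 1, 58780788 to 58784327, minus strand), the classical AP-1 activator and also a gene of 1 exon, had 258, 254 and 294 CPM in the shRNF20 libraries, against 252, 252 and 244 CPM in the shControl libraries. The ranges did not overlap, but the lowest shRNF20 library was less than 2 CPM above the highest control. The log2 fold change of 0.11 (SE 0.08, 95% interval -0.07 to 0.28) missed the threshold, with an edgeR adjusted p of 0.253. The interval leaves room for a rise of 0.28 on the log2 scale but not for a fall of the size seen in JUND.

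JUNB (ENSG00000171223.6, chromosome 19, 12791496 to 12793315, plus strand), known as a weaker activator that can oppose JUN, had 67.5, 68.2 and 74.9 CPM in the shRNF20 libraries, against 61.0, 100.4 and 58.3 CPM in the shControl libraries. shControl replicate 2 stood apart from the other controls, and the shRNF20 libraries lay between it and the other two. Over all libraries the log2 fold change was -0.06 (SE 0.19, 95% interval -0.49 to 0.37, edgeR adjusted p = 0.801). Without shControl replicate 2 JUNB rose, by 0.21 on the log2 scale (edgeR adjusted p = 0.033, when 29.1% of all genes were called higher), so its direction rests on that library. Part of JUNB is not counted: 14.2% of its exon bases lie over exons of HOOK2 on the opposite strand, where reads without strand are recorded as ambiguous. Adding the strand columns gave JUNB 144.6% to 150.3% of its count, which includes reads that HOOK2 may own, and a log2 fold change of -0.01.

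In the FOS family the abundant member FOSL1 was lower, the other abundant member FOSL2 did not pass, and the immediate early genes FOS and FOSB were scarce. FOSL1 (ENSG00000175592.9, chromosome 11, 65892049 to 65900573, minus strand) had 265, 277 and 263 CPM in the shRNF20 libraries, against 409, 415 and 432 CPM in the shControl libraries. Replicates were tight in both groups and far apart between them. FOSL1 was 1.56-fold lower, at 268 ± 7.19 CPM in shRNF20 and 419 ± 12.1 CPM in shControl cells (SD, n = 3 each; edgeR log2 fold change -0.64, SE 0.06, adjusted p = 7.66e-05). It passed in all 16 alternative settings, with log2 fold changes of -0.68 to -0.61.

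FOSL2 (ENSG00000075426.12, chromosome 2, 28392448 to 28417312, plus strand) had 697, 729 and 699 CPM in the shRNF20 libraries, against 728, 659 and 852 CPM in the shControl libraries. The control libraries lay on both sides of the shRNF20 libraries. The log2 fold change was -0.07 (SE 0.10, 95% interval -0.30 to 0.15, edgeR adjusted p = 0.53), and without shControl replicate 3 it was 0.02. The interval does not reach the fall seen for FOSL1.

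FOS (ENSG00000170345.10, chromosome 14, 75278774 to 75282230, plus strand) had 3.001, 3.68 and 4.43 CPM in the shRNF20 libraries, against 3.96, 6.87 and 4.13 CPM in the shControl libraries. The groups overlapped, and the highest value was again that of shControl replicate 2. The log2 fold change was -0.43 (SE 0.26, 95% interval -1.03 to 0.18, edgeR adjusted p = 0.196), an interval wide enough to hold both no change and a fall of 2-fold. FOS rested on 78 to 174 reads per library.

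FOSB (ENSG00000125740.14, chromosome 19, 45467995 to 45475179, plus strand), the close relative of FOS, had 2.81, 2.22 and 2.78 CPM in the shRNF20 libraries, against 3.08, 4.66 and 5.71 CPM in the shControl libraries. Every shRNF20 library was below every control, but the controls spread widely. FOSB was lower at a log2 fold change of -0.77 (SE 0.26, edgeR adjusted p = 0.0302). This call was lost on leaving out any 1 of the 3 shRNF20 libraries or shControl replicate 3, where the adjusted p reached up to 0.103, and with limma-voom (adjusted p = 0.0512), by which 5 members and 28.5% of all genes were lower.

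BATF3 (ENSG00000123685.9, chromosome 1, 212686418 to 212699985, minus strand), known from mice as the factor needed for cross-presenting dendritic cells, was a low transcript here. It had 3.27, 3.31 and 3.58 CPM in the shRNF20 libraries, against 6.23, 4.66 and 5.49 CPM in the shControl libraries. No shRNF20 library reached the lowest control. BATF3 was lower at a log2 fold change of -0.69 (SE 0.18, edgeR adjusted p = 0.0108), and it passed in 15 of 16 alternative settings.

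Both small MAFs among the subunits were lower, by less than JUND or FOSL1. MAFF (ENSG00000185022.12, chromosome 22, 38200767 to 38216511, plus strand), the stress-inducible small MAF, had 75.7, 76.3 and 76.7 CPM in the shRNF20 libraries, against 90.5, 116 and 94.6 CPM in the shControl libraries. The shRNF20 libraries were almost identical to each other, and shControl replicate 2 was again the highest. The log2 fold change was -0.40 (SE 0.10, edgeR adjusted p = 0.00808). MAFK (ENSG00000198517.10, chromosome 7, 1530714 to 1543043, plus strand), which is expressed in many tissues, had 75.03, 76.4 and 69.7 CPM in the shRNF20 libraries, against 79.7, 93.04 and 89.4 CPM in the shControl libraries. The groups were separated by a narrow gap. The log2 fold change of MAFK was -0.25 (SE 0.08, edgeR adjusted p = 0.0302), and the call was lost on leaving out any 1 of the 3 shRNF20 libraries or shControl replicate 3 (adjusted p up to 0.113), and with upper quartile scaling (adjusted p = 0.0572). MAFK shares 18.1% of its exon bases with TMEM184A on the opposite strand. Summing the strand columns gave 127.6% to 132.2% of the count of MAFK and 157% to 179% of that of MAFF, for which GENCODE 29 lists no overlapping exon. With those sums both remained lower, at log2 fold changes of -0.23 for MAFK and -0.48 for MAFF.

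**Figure D2:**
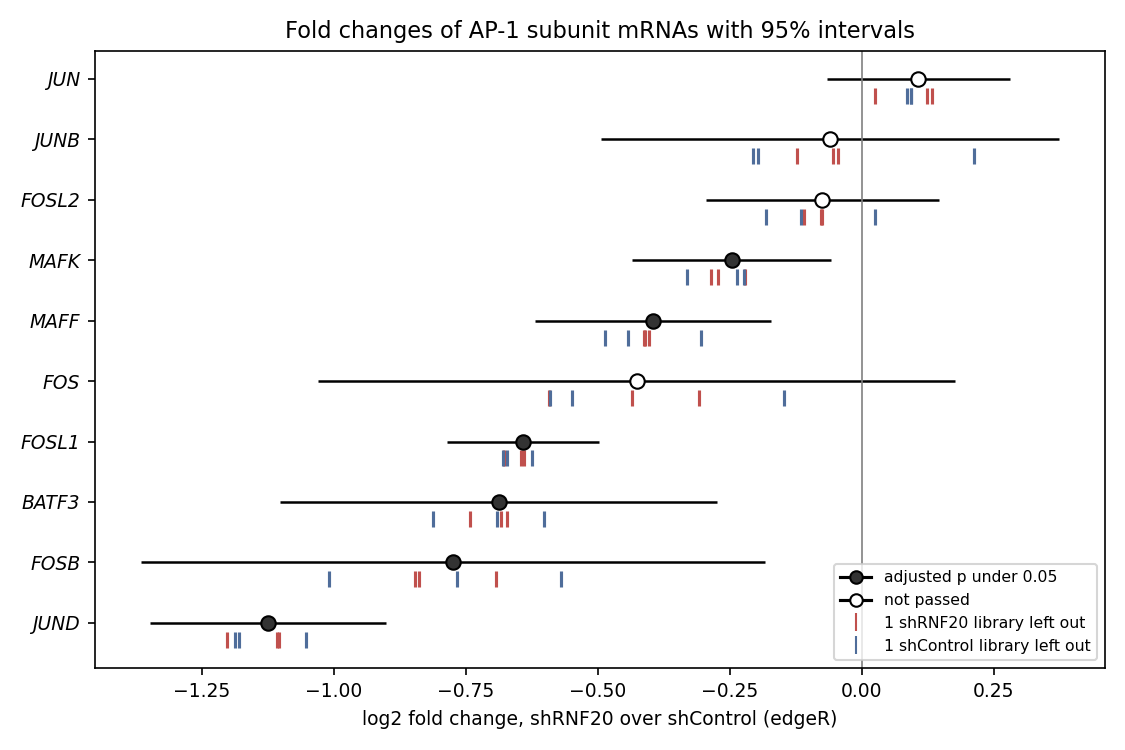
Log2 fold change, shRNF20 minus shControl, of each AP-1 subunit mRNA with its 95% interval from edgeR; filled points passed an adjusted p of 0.05, and coloured ticks give the fold change with 1 shRNF20 or 1 shControl library left out. JUND (-1.12) and FOSL1 (-0.64) lie clear of 0 with short intervals, FOSB (-0.77) and BATF3 (-0.69) have wide ones, and JUN is the single member above 0, with an interval that crosses it.

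Levels can be set against each other only per length, so counts were divided by exon length (CPM per kb). FOSL1 was the most abundant of the 10 in both groups, at 142 ± 3.81 CPM per kb in shRNF20 and 222 ± 6.40 CPM per kb in shControl cells (SD, n = 3 each), above 98.8% and 99.3% of the 15366 genes ranked in those groups. In shRNF20 cells the order below it was FOSL2 (99.0 CPM per kb), JUN (75.8), JUND (64.2), JUNB (38.6), MAFK (16.5), MAFF (13.6), BATF3 (1.25), FOS (1.14) and FOSB (0.47). In shControl cells it was JUND (140.0 CPM per kb), FOSL2 (104), JUN (70.4), JUNB (40.2), MAFK (19.6), MAFF (17.9), BATF3 (2.01), FOS (1.54) and FOSB (0.81). JUND thus ranked 4 in shRNF20 cells and 2 in shControl cells, while the order of the other 9 was the same. JUND kept those ranks with the longest transcript as length and with the sum of the strand columns, but MAFF then stood above MAFK. With the longest transcript MAFF had 23.2 CPM per kb and MAFK 21.9 in shRNF20 cells, and 30.5 and 26.0 in shControl cells. FOS also stood above BATF3 in shRNF20 cells with that length. Most neighbours in these orders did not overlap over their 3 libraries. BATF3 and FOS overlapped in both groups, and MAFK and MAFF overlapped in shControl only. FOSB lay above only 15.9% of the ranked genes in shRNF20 cells and 23.0% in shControl cells.

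All 3 shares in the JUN family differed between the groups, but JUN and JUNB did not pass the test as genes. Where JUND was lower, their shares go up by arithmetic. JUND made up 35.8%, 36.0% and 36.0% of the summed JUN-family level (CPM per kb) in the shRNF20 libraries, against 56.0%, 55.5% and 56.1% in the shControl libraries. These shares varied by less than 1 percentage point within a group. JUN made up 42.4 ± 0.36% in shRNF20 and 28.3 ± 2.81% in shControl cells, and JUNB 21.6 ± 0.38% and 15.8 ± 3.10% in those groups. The summed JUN-family level was 179 ± 13.3 CPM per kb in shRNF20 and 251 ± 29.5 CPM per kb in shControl cells. JUN was thus the largest of the 3 in shRNF20 cells and JUND in shControl cells. Counting overlap reads through the strand columns moved the JUND share to 32.5% in shRNF20 and 52.1% in shControl cells.

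In the FOS family FOSL1 made up 58.6 ± 0.18% of the summed level in shRNF20 and 67.6 ± 2.22% in shControl cells, and FOSL2 40.8 ± 0.08% in shRNF20 and 31.7 ± 2.36% in shControl cells. FOS and FOSB together stayed under 1% in every library. FOS took 0.47% in both groups, and FOSB 0.19% in shRNF20 and 0.24% in shControl cells. The summed FOS-family level was 243 ± 6.23 CPM per kb in shRNF20 and 329 ± 19.2 CPM per kb in shControl cells. Shares of a sum are not independent: where FOSL1 mRNA was lower and FOSL2 did not pass the test, the share of FOSL2 goes up by arithmetic. The shares of FOS and FOSB overlapped between the groups. So did those of the small MAFs, where MAFF made up 45.1 ± 1.33% of the sum of MAFF and MAFK in shRNF20 and 47.6 ± 2.02% in shControl cells (SD, n = 3 each).

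**Figure D3:**
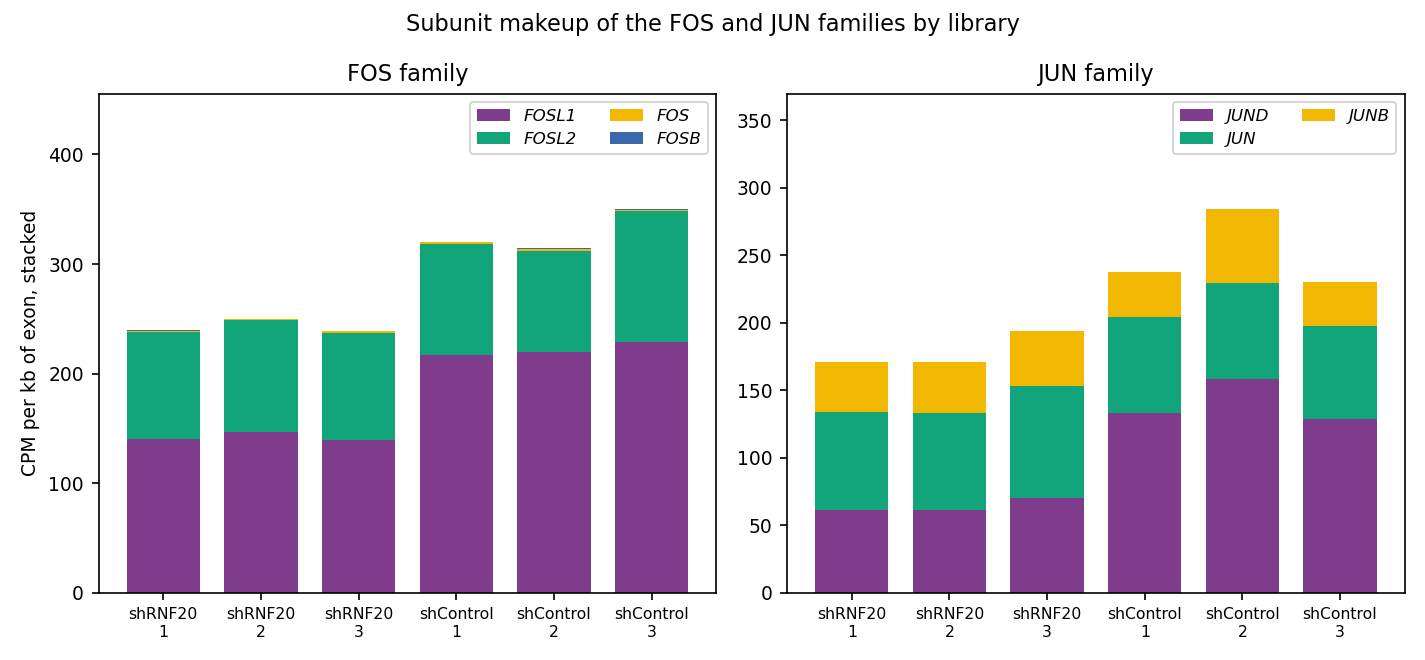
Stacked mRNA levels of the FOS family and the JUN family (CPM per kb of exon, vertical axes) with a bar per library, shRNF20 left of shControl. The JUND part makes up a mean of 35.9% of the bar in shRNF20 and 55.9% in shControl libraries, FOSL1 makes up 58.6% and 67.6% in those groups, and FOS and FOSB are almost too thin to see.

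Ratios of counts within a library do not depend on library size or scaling. The count ratio of JUND to JUN was 0.443, 0.451 and 0.444 in the shRNF20 libraries, against 0.987, 1.17 and 0.984 in the shControl libraries. That of FOSL1 to FOSL2 was 0.381, 0.379 and 0.377 in the shRNF20 libraries, against 0.562, 0.629 and 0.507 in the shControl libraries. Both ratios were lower in every shRNF20 library than in any control. MAFG, the third small MAF, which was not among the 10, went the other way from MAFF and MAFK. The count ratio of MAFK to MAFG was 0.404 ± 0.03 in shRNF20 and 0.744 ± 0.07 in shControl cells, and that of MAFF to MAFG was 0.418 ± 0.004 and 0.854 ± 0.12 in those groups. The ratio of BATF3 to BATF, its close relative, was 0.549 ± 0.03 in shRNF20 and 1.28 ± 0.33 in shControl cells. None of these ratios overlapped between the groups. Except for FOSL1 to FOSL2 this follows by arithmetic. In the other pairs the first gene was lower, and the second higher, in every shRNF20 library than in any control.

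Other bZIP genes that pair or compete with AP-1 moved in both directions. Of 21 tested, 8 were lower, 3 were higher and 10 did not pass, with a median log2 fold change of -0.48. The shares over all genes, for this list and those that follow, were 29.8% lower and 28.7% higher. The most clearly lower were ATF4, the master factor of the integrated stress response (132 CPM in shRNF20, 208 CPM in shControl; log2 fold change -0.66), and NFE2L1, an NRF2 relative that controls proteasome genes (312 and 547 CPM in those groups; -0.81). The 3 higher genes were MAFG (182.5 CPM in shRNF20, 117.6 CPM in shControl; 0.63), NFE2L2, which encodes NRF2 (124.5 and 95.7 CPM; 0.38), and BATF (6.18 and 4.35 CPM; 0.51). The count of lower genes dropped to 5 without shRNF20 replicate 1 or without shRNF20 replicate 2.

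Genes of the MAP kinase cascades, whose kinases phosphorylate AP-1 proteins and switch on their genes, were more often lower than higher. Of the 32 tested, 16 were lower (50%, against 29.8% of all genes), 5 were higher (15.6%, against 28.7%) and 11 did not pass. Their median log2 fold change was -0.21, and -0.11 with the strand columns summed. RPS6KA2, a ribosomal S6 kinase below ERK, had 6.16, 5.90 and 7.31 CPM in the shRNF20 libraries, against 45.1, 67.6 and 77.9 CPM in the shControl libraries (log2 fold change -3.29, SE 0.21, edgeR adjusted p = 1.28e-05). MAPK3, which encodes ERK1, had 16.7, 16.4 and 16.2 CPM in the shRNF20 libraries, against 59.2, 82.7 and 66.3 CPM in the shControl libraries (-2.08, SE 0.13, edgeR adjusted p = 1.14e-05). Both were far below the controls in every shRNF20 library. The 2 higher genes of smallest p were kinases of the JNK arm, which phosphorylates JUN. They were MAP2K7 (118 CPM in shRNF20, 79.0 CPM in shControl; log2 fold change 0.58) and MAP3K1 (71.5 and 47.0 CPM; 0.60). Genes of that arm moved in both directions. MAPK10 was also higher (log2 fold change 1.09), while MAP3K5 (-1.18), MAP2K4 (-0.63), MAP3K7 (-0.30) and MAPK8 (-0.27) were lower. MAPK9 and MAP3K11 did not pass. Without any 1 of the 3 shRNF20 libraries the count of higher genes was 3.

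Phosphatases and other brakes on these kinases included 7 lower, 2 higher and 6 not passing of 15 tested (median log2 fold change -0.36). The ERK phosphatases DUSP6 (62.7 CPM in shRNF20, 172 CPM in shControl; log2 fold change -1.45) and DUSP4 (375 and 824 CPM; -1.14) were lower. DUSP8, which acts on JNK and p38 (78.4 and 29.2 CPM; 1.43), and DUSP2 (2.17 and 1.18 CPM; 0.87) were higher. Without shRNF20 replicate 3 the count of higher genes was 1.

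Factors that bind the FOS and JUN promoters or act there as cofactors showed no common direction: of 14 tested, 5 were lower, 4 higher and 5 did not pass (median log2 fold change -0.07). The ETS factors ELK4 (56.6 CPM in shRNF20, 102 CPM in shControl; log2 fold change -0.85) and ELK3 (90.8 and 132 CPM; -0.54), which bind serum response elements beside SRF, were lower. MEF2A (58.3 and 39.1 CPM; 0.57), which acts at the JUN promoter, and CREB1 (87.9 and 65.3 CPM; 0.43), which binds cAMP response elements, were higher. The count of lower genes fell to between 2 and 3 on leaving out any 1 shRNF20 library. Of 4 tested genes whose products mark FOS or JUN proteins for destruction or isomerise them, 2 were higher, 0 were lower by edgeR at the adjusted or at an unadjusted p under 0.05, and 0 were lower by DESeq2 or limma-voom (median log2 fold change 0.11). FBXW7, the ubiquitin ligase subunit that recognises phosphorylated JUN, had 38.6 CPM in shRNF20 and 17.3 CPM in shControl cells (1.15, SE 0.11, edgeR adjusted p = 7.61e-05). ITCH, another ligase for JUN proteins, was higher by 0.20 (edgeR adjusted p = 0.0466). The count of higher genes was 1 on leaving out any single library except shControl replicate 2. Protein levels were not measured.

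**Figure D4:**
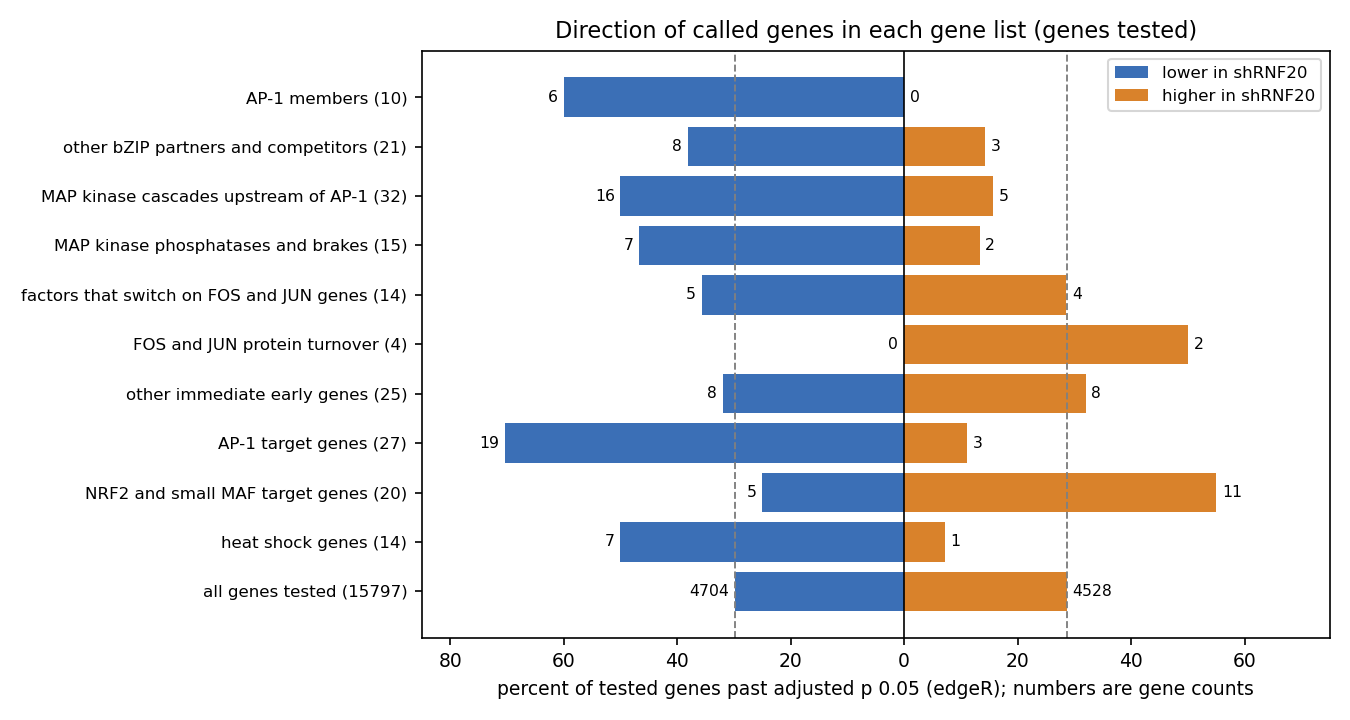
Share of tested genes that were lower (left of 0) or higher (right of 0) in shRNF20 than in shControl cells (percent, horizontal axis; edgeR adjusted p under 0.05) for the 10 AP-1 subunits, 9 lists of related genes and all genes tested; figures at the bars are numbers of genes and dashed lines mark the shares over all genes. The AP-1 subunits show 6 lower and 0 higher, AP-1 target genes 19 lower and 3 higher, and NRF2 and small MAF targets 5 lower and 11 higher, beside 4704 lower and 4528 higher among all genes.

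Other immediate early genes, which respond to the same stimuli as FOS and JUNB, were evenly divided: of 25 tested, 8 were lower, 8 higher and 9 did not pass. Their median log2 fold change was 0.03, and it turned negative on leaving out any 1 shRNF20 library (-0.14 to -0.10) or shControl replicate 3 (-0.20). Among the lower genes, MYC (92.6 CPM in shRNF20, 164 CPM in shControl, log2 fold change -0.82) had the smallest p. IER3 (142 and 353 CPM, -1.31) came next. Larger falls, with larger p, were those of PTGS2 (21.0 and 229 CPM, -3.45) and NR4A2 (2.95 and 13.5 CPM, -2.20). Among the higher genes, CCN1 (4909 and 2005 CPM, 1.29) and GADD45B (74.5 and 36.3 CPM, 1.04) had the smallest p. In the shControl group replicate 2 was the highest of the 3 libraries for 6 of the 10 AP-1 subunits and for 16 of the 25 other immediate early genes (64%), against 35.9% of all genes tested. In the shRNF20 group replicate 3 was the highest for 6 of the 10 subunits and 14 of the 25 (56%), against 34.8% of all genes. EGR1 and DUSP1 were chosen after their values were seen, because shControl replicate 2 was their highest library. EGR1 had 63.1, 63.0 and 78.3 CPM in the shRNF20 libraries, against 47.6, 108 and 44.5 CPM in the shControl libraries. DUSP1 had 243, 246 and 253 CPM in the shRNF20 libraries, against 214, 441 and 294 CPM in the shControl libraries. The shRNF20 libraries lay between shControl replicate 2 and both other controls for EGR1, as for JUNB, whereas for DUSP1 shControl replicate 3 was above them too. Neither passed the test, with edgeR adjusted p values of 0.937 and 0.187.

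**Figure D5:**
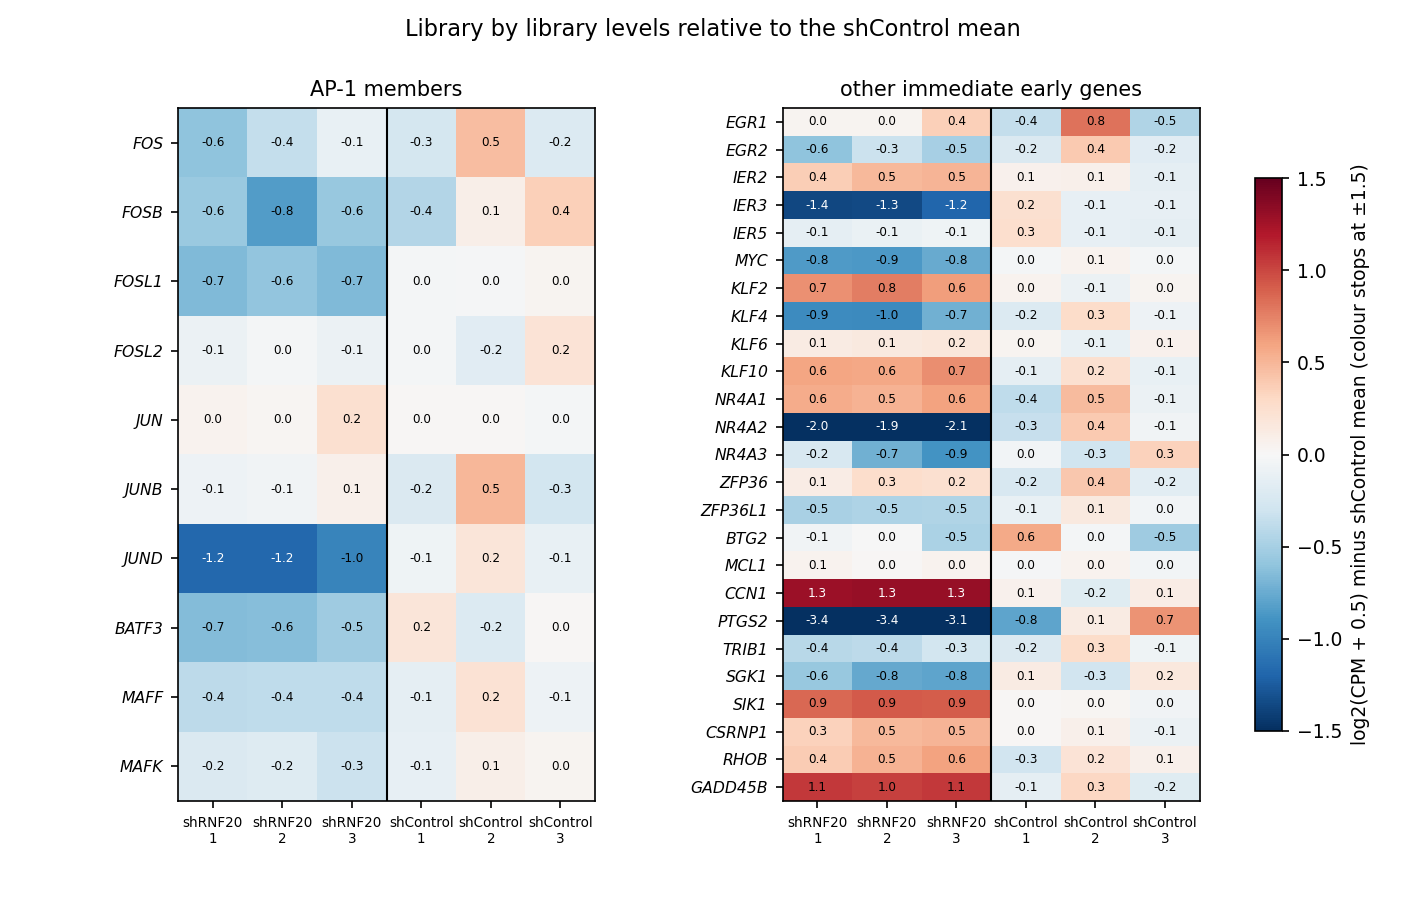
Levels of the 10 AP-1 subunits and 25 other immediate early genes (rows) in each library (columns, shRNF20 left of shControl), as log2(CPM + 0.5) minus the mean of the 3 shControl libraries; colours stop at 1.5 in either direction. Among the controls replicate 2 is the highest for JUNB (0.50), FOS (0.46) and EGR1 (0.82), and the JUND row is negative in all 3 shRNF20 libraries (-1.18, -1.18 and -0.99).

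Genes known as AP-1 targets were mostly lower. Of 27 tested, 19 were lower, 3 were higher and 5 did not pass, with a median log2 fold change of -1.51, against 29.8% lower and a median of -0.01 among all genes. HMGA1, an architectural chromatin protein, had 420, 419 and 415 CPM in the shRNF20 libraries, against 1922, 2256 and 1941 CPM in the shControl libraries (log2 fold change -2.29, SE 0.08, edgeR adjusted p = 3.42e-06). PLAU, the urokinase gene with an AP-1 enhancer, had 34.8, 33.4 and 32.9 CPM in the shRNF20 libraries, against 244, 199 and 194 CPM in the shControl libraries (-2.65, SE 0.10, edgeR adjusted p = 3.59e-06). Both were separated from the controls by a wide margin. The 3 higher genes were CCND1, which encodes cyclin D1 (700.0 CPM in shRNF20, 487 CPM in shControl; 0.52), EZR, a membrane to cytoskeleton linker (460.0 and 347 CPM; 0.41), and the haem-degrading enzyme HMOX1 (21.5 and 16.2 CPM; 0.41), which is also on the list of NRF2 targets. This list, like the others, was chosen with earlier results of these data known, so its share beside that of all genes is only a description. PTGS2, among its lower genes, is also on the list of immediate early genes. Many genes on the AP-1 target list also answer to other factors, and AP-1 binding was not measured.

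NRF2 and small MAF target genes leaned the other way, with 11 higher (55%, against 28.7% of all genes), 5 lower (25%, against 29.8%) and 4 not passing. The median log2 fold change of the 20 tested was 0.39. The redox enzyme TXNRD1 (1979 CPM in shRNF20, 828 CPM in shControl; edgeR log2 fold change 1.26, adjusted p = 2.05e-05) and OSGIN1 (69.4 and 22.3 CPM; 1.63, adjusted p = 1.48e-05) were the clearest of the higher genes. The pentose phosphate enzymes PGD (112 and 202 CPM; -0.85) and TALDO1 (132 and 185 CPM; -0.49) were lower. Heat shock genes, which many stresses induce together with FOS and JUN, included 7 lower, 1 higher and 6 not passing of 14 tested (median log2 fold change -0.35). HSPA1A (9.85 CPM in shRNF20, 26.4 CPM in shControl; -1.42), the inducible heat shock protein, shares most of its sequence with HSPA1B, so its count is uncertain where reads could not be assigned. HSPA4L (57.3 and 88.1 CPM; -0.62) was also lower, and the mitochondrial chaperonin HSPE1 (8.46 and 5.31 CPM; 0.67) was higher.

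The genes whose levels followed FOSL1, FOS and JUN most closely over the 6 libraries were taken by Pearson's r of log2-CPM, as a description over libraries that fall into the same 2 groups. For FOSL1 they were NNT-AS1 (r = 0.9993), TNS3 (0.9988) and DDX59 (0.9986). NNT-AS1 is an antisense RNA counted without strand. With 1617 of 10014 genes above an r of 0.95, a pattern like that of FOSL1 was common. For FOS they were NSUN3 (0.9803), GPRC5B (0.9706) and PRCP (0.968), and 14 genes exceeded 0.95. For JUN they were NKRF (0.9722), NEDD8 (0.9508) and the ribosomal protein gene RPS18 (0.9498), and 2 genes exceeded 0.95.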

How the data were processed

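Per the labels' protocols, RNA was purified on columns and libraries were prepared commercially. Per the submitters' processing notes, FastQC 0.12.1 and STAR 2.7.11a were used with hg38; the sources used here give no annotation release, trimming or mRNA enrichment. For each library the authors deposited raw read counts per gene, without strand and for each strand. Strand columns were nearly equal (50.1% to 50.2%), so counts without strand were used, which leave out reads over several genes (10.7% to 11.2% ambiguous) and multimapping reads. Lines naming no gene (20.9% to 24.1%) were left out.

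Counts were tested with R 4.3.3 and edgeR 4.0.16 (filterByExpr, minimum count 10; TMM; quasi-likelihood F-test, robust; Benjamini-Hochberg over all genes, threshold 0.05), which was checked on simulated counts. CPM use TMM library sizes, and SE is the log2 fold change over the root of F. Exon lengths, overlaps and positions are from GENCODE 29 on GRCh38, which may not be the authors' release. Whether replicates came from separate cultures is not labelled; p-values then cover only the spread among these libraries, possibly technical. The members and gene lists were chosen with earlier results of these data known. From each list the 2 genes of smallest p per direction are named (mean log2-CPM of at least 1), and all of a direction holding 3 or fewer; genes like FOSL1, FOS and JUN needed a mean log2-CPM of at least 3. Alternatives were limma-voom (limma 3.58.1), DESeq2 1.42.0, scaling by RLE or upper quartile, no filter, a filter at 1 CPM in 3 libraries, a replicate block, summed strand columns, no mitochondrial genes, the shRNF20 libraries summed to 1 sample, the longest transcript as length, and each library left out. Protein sequences were not used here.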

Additional observations from a re-analysis of the deposited data

Results flagged for a closer look

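Reads that fell outside annotated exons, which none of the comparisons uses, made up 5.33% of all reads recorded in the shRNF20 libraries on average (range 5.05% to 5.49%), against 2.49% in the shControl libraries (2.39% to 2.58%). The groups did not overlap. This share was singled out because it is a signal above the control level in lines of the tables that name no gene. Its part in the levels of the AP-1 subunits was not tested.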

How the results depend on the processing

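FOSL1 and JUND passed under all 16 alternatives, BATF3 and MAFF under 15, and FOSB and MAFK under 10; the members called lower numbered 4 to 6 with any library left out, when 24.0% to 30.8% of all genes were lower. Signs turned for JUNB without shControl replicate 2 (0.21), FOSL2 without shControl replicate 3 (0.025), the protein turnover median without a filter (-0.027), and the immediate early gene median without a filter (-0.29), with shRNF20 summed (-0.22), without shRNF20 replicate 1, 2 or 3 (-0.10, -0.12, -0.14) and without shControl replicate 3 (-0.20); the cause was not tested. With the shRNF20 libraries summed to 1 sample, a fit whose spread comes from shControl alone, 1753 genes were higher and 1619 lower, and 2 members were lower. In that fit the counts higher and lower were 1 and 3 for bZIP partners, 3 and 9 for MAP kinase cascades, 1 and 2 for phosphatases, 1 and 1 for factors at the FOS and JUN genes, 4 and 5 for immediate early genes, 4 and 1 for NRF2 targets, and 0 and 3 for heat shock genes. It also gave 0 AP-1 targets higher and 1 turnover gene higher, a count of 1 that recurred without a filter, with the replicate block and without mitochondrial genes. With a library left out, counts ranged from 5 to 10 for bZIP partners lower, 3 to 6 for MAP kinases higher, 1 to 2 for phosphatases higher, 2 to 7 for factors lower, 1 to 2 for turnover higher and 0 to 1 for members higher, and log2 fold changes from -0.18 to 0.025 for FOSL2, -0.21 to 0.21 for JUNB and -0.20 to 0.045 for the immediate early gene median. By longest transcript the family shares were 0.638% (FOS), 59.8% (FOSL1), 39.3% (FOSL2) and 0.257% (FOSB) in shRNF20 and 0.323% (FOSB) in shControl. By strand sums they were 38.4% (JUN), 29.1% (JUNB) and 32.5% (JUND) in shRNF20, and 21.5% (JUNB) and 52.1% (JUND) in shControl.

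Samples sharing a replicate number did not deviate together over all genes tested (r = -0.02, 0.04 and 0.03). The shRNF20 libraries lay close to each other, so a low r cannot decide whether the numbers pair samples. The labels do not say. With the replicate block 4518 genes were lower and 4418 higher, and 6 members were lower. FOS rested on 78 to 174 reads per library; whether depth limits its test was not tested.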

Other observations

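The 5 AP-1 target genes that did not pass the test, named here after their values were seen, include some of the most abundant on that list. EREG, an EGFR ligand, had 1353, 1299 and 1332 CPM in the shRNF20 libraries, against 761, 1261 and 986 CPM in the shControl libraries, and just missed the threshold (log2 fold change 0.41, edgeR adjusted p = 0.0515). AXL, a receptor tyrosine kinase, had 1313, 1318 and 1281 CPM in the shRNF20 libraries, against 1426, 1341 and 1307 CPM in the shControl libraries (-0.06, edgeR adjusted p = 0.474). TIMP1, a metalloprotease inhibitor, had a log2 fold change of -0.33 (edgeR adjusted p = 0.0553), the cytokine LIF one of -0.15 (edgeR adjusted p = 0.386) and the urokinase receptor PLAUR one of 0.07 (edgeR adjusted p = 0.551). PLAUR thus did not pass while its ligand PLAU was lower.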
